A study of Drosophila melanogaster with 15 samples.

Results

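Brains and imaginal discs of third-instar Drosophila melanogaster larvae that overexpress Sak, a group labelled SakOE and described by the submitters as having too many centrosomes, were compared with the same tissues of 2 wild-type strains. The comparison was defined by the sample labels and rests on 9 of the series' 15 arrays, 3 for SakOE, 3 for the strain w67, whose genotype is given as white wild type, and 3 for OregonR. A gene was said to rise or fall only where SakOE differed in the same direction from w67 and from OregonR, each tested separately. Of 11982 genes with a probe set that carries a single gene symbol, 6973 were measurable and were tested.

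Each array was hybridised with RNA of 10 wandering larvae pooled into 1 biological replicate. The labels do not give the transgene, its promoter or the cells in which it is active, nor the strain background of the SakOE flies. The remaining 6 arrays, from larvae mutant for DSas-4 or DSas-6 and described by the submitters as lacking centrosomes, entered the fit and are used below to see which differences also set SakOE apart from them. RNA came from whole tissues, so fewer cells of a type and less RNA per cell cannot be told apart.

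Sak, the fly Polo-like kinase 4, starts the duplication of centrioles, the barrels of microtubules around which a centrosome forms. Sas-6 and Sas-4 act after it, Sas-6 in building the cartwheel of the new centriole and Sas-4 in attaching microtubules to it. Cells with extra Sak assemble supernumerary centrioles, and dividing cells with extra centrosomes can pass through a multipolar spindle before the poles cluster. The neuroblasts of the larval brain, its neural stem cells, use their centrosomes to orient the axis of asymmetric division.

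The levels below are log2 values from arrays brought to a common median, so a difference of 1 is a doubling. The 3 SakOE arrays correlated with each other at 0.9928 or more across genes, the w67 arrays at 0.9952 or more and the OregonR arrays at 0.9949 or more. Within a group, the SD of a gene was typically small, with medians between 0.0732 and 0.0871 over the 5 groups. The tissue markers were present in all 3 groups. Of the tested members, 18 of 18 neuron markers, 21 of 22 neuroblast markers, 15 of 16 glia markers, 19 of 19 eye disc markers and 23 of 24 wing, leg and haltere disc markers reached a log2 value of 4 on all 9 arrays.

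The labelled gene itself was not higher in SakOE. SAK stood at 7.63, 7.55 and 7.60 in the 3 SakOE arrays, at 7.86, 7.85 and 7.62 in w67 and at 7.64, 7.58 and 7.42 in OregonR. The SakOE values lay within the OregonR range and, except for replicate 1, below all w67 values. The difference was -0.18 ± 0.10 (SE) from w67 (limma adjusted p = 0.253), and from OregonR it was 0.05 ± 0.10 (limma adjusted p = 0.805). A single probe set stands for SAK, and whether it lies in the part that the transgene carries is not known here, so these values do not show whether the kinase is overexpressed. The genes of the partner proteins did not pass either, Sas-4 with differences of 0.01 and -0.16 and Sas-6 with -0.13 and -0.15.

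SakOE differed from w67 at 1194 genes (17.1% of those tested, limma adjusted p under 0.05), 622 higher (8.92%) and 572 lower (8.2%). It differed from OregonR at 1270 genes (18.2%), 664 higher (9.52%) and 606 lower (8.69%). Against both wild types, 646 genes changed in the same direction (9.26% of those tested). Of these, 363 rose (5.21%) and 283 fell (4.06%), and 16 further genes passed against both but in opposite directions. The wild types differed from each other at 497 genes (7.13%), and 51 of the 646 were among them. The split between rises and falls depended on the scaling. Before centring, the deposited values of SakOE lay 0.12 below those of w67 and 0.02 below those of OregonR in the median gene, and without centring 241 genes rose and 505 fell. Of the 646 genes, 524 were also called without centring and 561 after quantile normalization.

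Most of the changes were small. For each gene the smaller of its differences from w67 and from OregonR was taken as its size. The median size was 0.37, with 0.36 among the genes that rose and 0.38 among those that fell, and 424 genes changed by less than 0.5. At least 1 log2 unit separated SakOE from both wild types at 57 genes, 30 higher and 27 lower. All 3 SakOE arrays lay beyond all 6 wild-type arrays in 631 of the 646 genes and in 19.9% of all tested genes, but the 646 were chosen on these same arrays, so nothing is read from that count. Among the 646, 21 genes were under 4 on all 6 wild-type arrays and 26 were under 4 on all 3 SakOE arrays, so their folds are given as lower bounds, with the dim group set to 4.

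**Figure D1:**
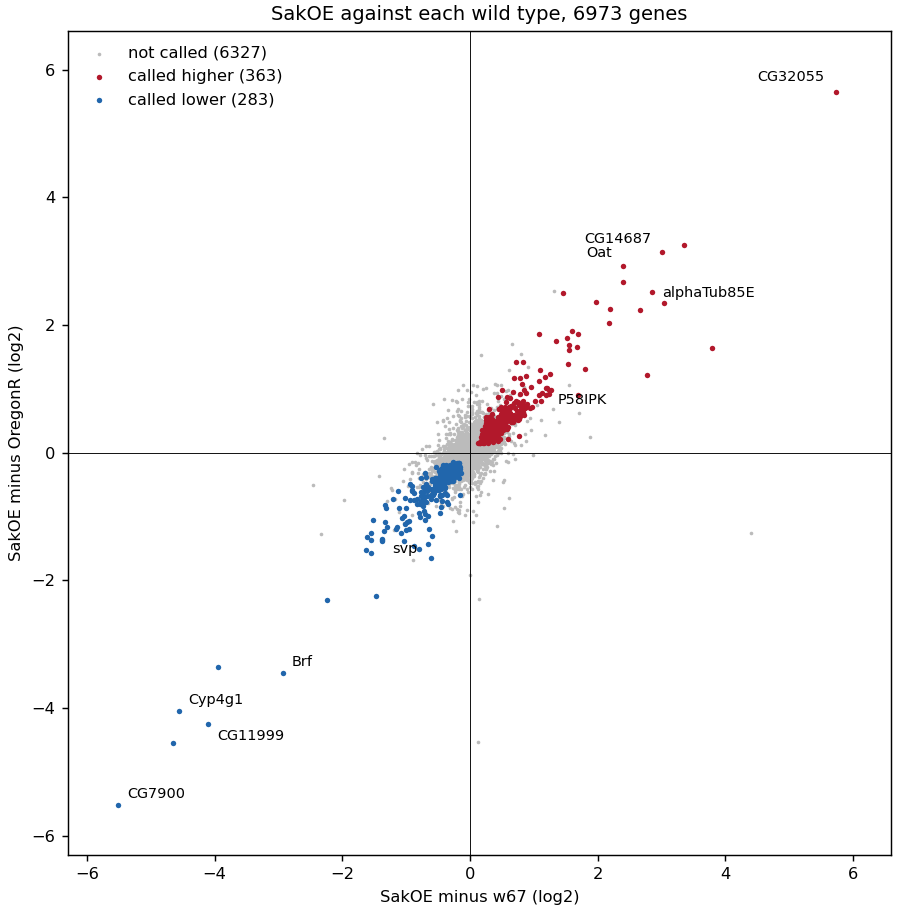
Each point is a gene, with its difference between SakOE and w67 (log2, horizontal axis) and between SakOE and OregonR (log2, vertical axis). The 363 genes that rose are red, the 283 that fell are blue and the 6327 others are grey; CG32055 lies at 5.73 and 5.65, CG7900 at -5.51 and -5.52, and most called genes lie within 1 unit of 0.

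The largest rise was in CG32055, a gene of no described function here. It reached 7.49, 7.40 and 8.72 in the SakOE arrays, while it lay between 2.12 and 2.17 in w67 and between 2.22 and 2.23 in OregonR. SakOE was thus far above groups in which the gene was not detected, and the fold was at least 14.2. The gene reached 4 on the SakOE arrays alone and so entered the test only through them. Its p-value is therefore no support and is not given. CG13032 had the same pattern, at 5.51, 5.24 and 5.65 in SakOE and at 2.22 or below on every wild-type array, a rise of at least 2.69-fold. It too entered the test only through SakOE. CG14662 was at 6.65, 6.17 and 5.99 in SakOE and at 4.24 or below in the wild types (at least 4.70-fold).

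Among genes that the wild types expressed, CG14687 stood at 10.71, 11.17 and 11.19 in SakOE, at 8.24, 7.93 and 7.90 in w67 and at 8.02, 7.81 and 7.80 in OregonR. The groups did not overlap, and the rise was 8.02-fold. The gene alphaTub85E, which encodes an alpha-tubulin isoform, stood at 8.33, 8.68 and 9.27 in SakOE, at 6.06, 5.92 and 5.76 in w67 and at 6.08, 6.43 and 6.204 in OregonR. Its rise was 5.73-fold, with differences of 2.85 ± 0.18 and 2.52 ± 0.18 (SE; limma adjusted p = 2.86e-07 and 6.55e-07). CG5618 was nearly level within SakOE at 9.75, 9.78 and 9.79, and lay between 7.26 and 7.76 on the wild-type arrays (4.56-fold). Past1, a membrane-trafficking protein of the Eps15 homology domain family, stood at 10.82, 10.91 and 10.86 in SakOE and between 9.24 and 9.62 in the wild types, a 2.63-fold rise.

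Enzymes of amino acid and GABA breakdown were among the largest rises. Oat, the ornithine aminotransferase, was at 8.20, 8.16 and 8.18 in SakOE, at 5.77, 5.96 and 5.62 in w67 and at 5.80, 4.66 and 5.32 in OregonR (5.28-fold). Gabat, the GABA transaminase, was at 5.89, 6.03 and 5.91 in SakOE and at 3.72 or below in the wild types (at least 3.74-fold); its probe set is possibly shared with other transcripts. Of 17 tested genes of GABA, glutamate and ornithine metabolism and signalling, 3 rose and 1 fell, beside 5.21% and 4.06% of all tested genes. Besides Oat and Gabat, Gs1, a glutamine synthetase, rose (1.21-fold). Rdl, a subunit of the GABA-gated chloride channel, fell (1.50-fold). Both weaker calls were fragile. Gs1 was lost when any of 6 single arrays was left out and Rdl when any of 5 was left out, with Rdl at -0.33 without SakOE replicate 3.

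The amino acid transporter gene path differed between the wild types as well as from them. It stood at 11.47, 11.16 and 11.47 in SakOE, at 7.67, 7.71 and 7.35 in w67 and at 10.02, 10.34 and 8.85 in OregonR, so its 3.10-fold rise is set by OregonR. In grass, a serine protease of the Toll pathway, the SakOE arrays spread from 7.79 to 9.54 and all lay above the highest wild-type array at 7.21 (3.13-fold). The sodium channel subunit rpk also spread within SakOE, from 5.69 to 7.06, above a highest wild-type value of 4.97 (2.92-fold). GNBP2, of the Gram-negative binding protein family, rose at least 2.80-fold and dpr4, an immunoglobulin-domain cell surface protein, at least 1.68-fold. The other genes among the 20 largest rises were Dred (at least 3.46-fold, whose probe set is possibly shared), dsx-c73A (at least 2.74-fold), CG33062 (at least 3.00-fold), CG13064 (2.94-fold), CG2993 (at least 2.64-fold) and CG14191 (2.74-fold). None of these 20 calls was lost under any alternative tried.

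CG7900 fell from a well-measured level to the bottom of the scale. It stood at 2.25, 2.40 and 2.26 in SakOE, at 7.94, 7.76 and 7.75 in w67 and at 7.76, 7.86 and 7.84 in OregonR, a fall of at least 13.5-fold (limma adjusted p = 2.68e-14 and 2.65e-14). CG11999 was at 5.86, 5.56 and 5.55 in SakOE and between 9.71 and 10.00 on the wild-type arrays (17.2-fold lower). The gene Brf encodes a subunit of TFIIIB, the factor that places RNA polymerase III on its promoters, and stood at 4.99, 4.91 and 4.72 in SakOE, at 7.81, 7.77 and 7.86 in w67 and at 8.39, 8.31 and 8.28 in OregonR. Its fall was 7.66-fold, and no SakOE array came within 2 units of a wild-type array. Of the 14 tested genes of RNA polymerase III and its initiation factors, 1 rose and 1 fell, beside 5.21% and 4.06% of all tested genes. The rise was that of Tbp, the TATA-binding protein, by 1.14-fold, which was lost without centring (0.07). The other 12 did not pass.

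Other large falls were more variable within SakOE. CG6912 was at 4.34, 6.13 and 3.29 in SakOE and between 9.08 and 9.36 in the wild types (23.5-fold). Cyp4g1, a cytochrome P450 of oenocytes that takes part in making cuticular hydrocarbons, was at 3.36, 3.82 and 4.24 in SakOE, at 8.09, 8.78 and 8.21 in w67 and at 8.75, 7.34 and 7.49 in OregonR (16.6-fold). CG43085 spread from 4.87 to 6.94 in SakOE, under a lowest wild-type value of 8.94 (10.3-fold). In each of these 3 genes the groups did not overlap. Some SakOE values of CG6912 and Cyp4g1 lay under the detection level of 4, so the folds of this pair are rough.

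The cuticle protein gene Cpr49Ah rested on part of the arrays. It was at 5.41, 3.64 and 3.59 in SakOE, and its call was lost in 6 of the fits that leave out 1 array, at -1.24 without SakOE replicate 3 and -1.26 without SakOE replicate 2. CG7173 lost its call without SakOE replicate 2 (-1.43) or w67 replicate 3 (-0.97), and CG14566 without w67 replicate 3 (-0.88). The rest of the 20 largest falls kept their calls under every alternative tried. They include the noncoding RNA lncRNA:CR32027 (4.71-fold), the condensin II subunit gene Cap-H2 (2.59-fold), the protein kinase A family member Pka-C3 (2.57-fold), bma (2.50-fold), the immune-regulated catalase Irc (2.39-fold), hzg (2.33-fold), nvd (2.24-fold), Pcif1 (2.201-fold) and, as lower bounds, the tachykinin-family receptor gene TkR86C (1.02-fold) and CG17026 (1.24-fold). The nuclear receptor gene svp is described with the neuroblast genes.

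**Figure D2:**
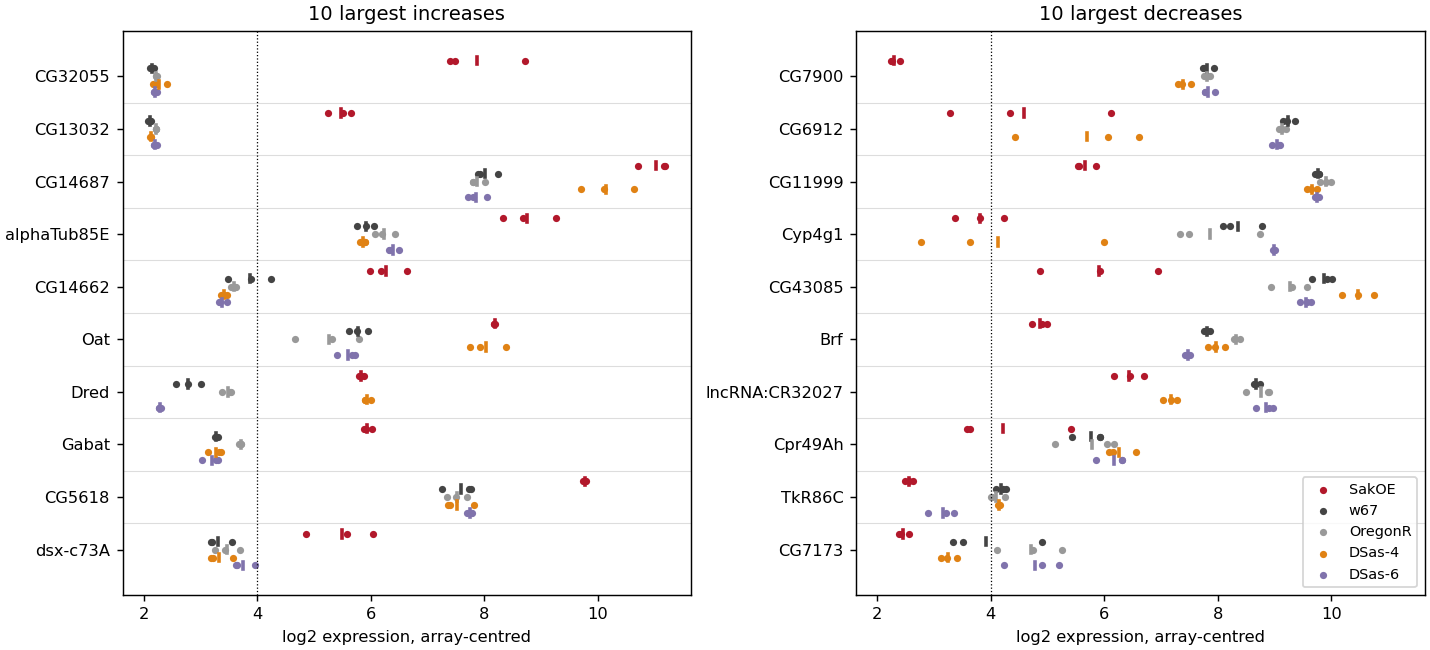
Array-centred log2 levels of the 10 genes with the largest rises (left) and falls (right), with a point for each array and a short bar for the mean of each group of 3; the dotted line marks the detection level of 4. CG32055 and CG13032 are near 2 on every array outside SakOE, while Oat, Dred, CG6912 and Cyp4g1 lie in DSas-4 near the SakOE values.

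Of the 646 genes, 320 (49.5%) also differed in the same direction from DSas-4 and from DSas-6, which is 4.59% of all tested genes, with 190 higher (2.72%) and 130 lower (1.86%). The 4 tests share the SakOE arrays, and SakOE differed from DSas-4 at 21.8% and from DSas-6 at 17.0% of the tested genes. In this group the largest rises were CG32055, CG13032, alphaTub85E, CG14662, Gabat, CG5618, dsx-c73A, CG33062, dpr4 and CG14191. The largest falls were CG7900, CG11999, CG43085, Brf, Cpr49Ah, CG17026, Pka-C3, svp, hzg and CG7386. CG32055 lay at 2.40 or below and alphaTub85E at 6.503 or below on the 6 arrays of the mutants, and CG7900 lay at 7.30 or above.

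Other large changes had a like level in DSas-4. Oat was at 8.39, 7.93 and 7.75 in DSas-4 and Dred at 6.01, 5.90 and 5.90, so neither differed from all 4 groups. CG6912 was at 4.43, 6.61 and 6.07 and Cyp4g1 at 2.77, 6.004 and 3.63 in DSas-4. The DSas-6 arrays lay on the wild-type side of SakOE in these genes, though not always within the wild-type range. Oat was at 5.40, 5.72 and 5.68 there, inside that range, and CG6912 was between 8.96 and 9.10, at its lower end. Cyp4g1 was between 8.97 and 9.004, above all 6 wild-type arrays, and Dred between 2.26 and 2.31, below all 6, which were themselves under the detection level of 4. CG14687 was also high in DSas-4, at 10.63, 9.71 and 10.11, and SakOE still passed against it.

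Genes of the endoplasmic reticulum, where secreted and membrane proteins are made, folded and checked, rose together in SakOE. When unfolded proteins accumulate there, the sensors Ire1, PEK and Atf6 start the unfolded protein response, which raises chaperones and other parts of the folding machinery. Of the 10 tested members of the endoplasmic reticulum stress list, 8 rose and 0 fell, against 5.21% and 4.06% of all tested genes. The median difference of the list was 0.29 against w67 and 0.34 against OregonR, where all tested genes had medians of 0.005 and -0.001. The mean of the 10 genes lay between 10.48 and 10.65 in the SakOE arrays. It lay between 10.22 and 10.26 in w67 and between 10.22 and 10.27 in OregonR. As 8 of the 10 were called on these same arrays, nothing is read from that gap. Without SakOE replicate 3 the count was 5 and in the deposited values without centring it was also 5.

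The chaperones of the list were among the most abundant transcripts that changed. Hsc70-3, the fly BiP, stood at 14.001, 14.09 and 14.18 in SakOE, at 13.44, 13.38 and 13.36 in w67 and at 13.62, 13.55 and 13.56 in OregonR. Its differences were 0.69 ± 0.07 and 0.51 ± 0.07 (SE; limma adjusted p = 1.28e-05 and 0.000157), and all 3 SakOE arrays were above all 6 others. Gp93, the relative of GRP94, stood at 13.11, 13.27 and 13.24 against 12.28 to 12.53 in the wild types (1.69-fold). Herp, which helps to degrade misfolded proteins, stood at 10.57, 10.57 and 10.65 against 9.94 to 10.09 (1.49-fold).

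The sensors moved less. Atf6 rose 1.23-fold, from a range of 9.14 to 9.36 in the wild types to 9.56, 9.57 and 9.64, and PEK rose 1.20-fold. Ire1, with differences of -0.31 and -0.16 (limma adjusted p = 0.0774 and 0.369), and crc, the fly ATF4, with 0.12 and 0.09 (0.106 and 0.213), did not pass. Cnx99A, Ero1L and Hrd3 completed the 8 members that rose, and the calls of Cnx99A and Ero1L were each lost when any of 5 single arrays was left out.

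Further lists of the secretory pathway were written after the changed genes had been seen, so their counts describe what moved and are no independent support. The stress list was chosen with earlier results of these data known, so its count is no independent support either. Of 27 tested genes of endoplasmic reticulum folding and degradation, 23 rose and 0 fell, and 22 of these also differed from DSas-4 and DSas-6. This list shares genes with the stress list, Herp and the BiP gene among them, so the counts of both overlap. The median difference of the 27 was 0.55 against w67 and 0.48 against OregonR. In the mutants the same genes had medians of 0.02 and -0.10 for DSas-4 and of 0.05 and -0.05 for DSas-6 against w67 and OregonR. The largest rise was that of P58IPK, a DnaJ co-chaperone of BiP, at 10.88, 11.08 and 11.12 in SakOE, 9.91, 9.78 and 9.80 in w67 and 9.98, 10.00 and 10.07 in OregonR (2.02-fold). Next came shv, another DnaJ protein of the lumen, at 11.35, 11.38 and 11.04 against 9.84 to 10.30 in the wild types (1.98-fold).

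The other rises of this list held enzymes that form disulfide bonds, retrieval and transport factors and a secreted trophic factor. CaBP1, a protein disulfide isomerase, rose 1.62-fold and ERp60, another, 1.40-fold from an already high level, at 13.87, 13.89 and 13.90 against 13.32 to 13.42. The genes wbl, which encodes a disulfide isomerase-related protein, and sel rose 1.55-fold and 1.61-fold. KdelR, the receptor that returns chaperones from the Golgi, was at 12.25, 12.27 and 12.25 against 11.41 to 11.74 (1.52-fold). Manf, a secreted trophic factor, rose 1.55-fold and meigo 1.57-fold. The 4 genes that did not pass were prtp, sip3, TER94 and Edem2, with smaller differences of 0.12, 0.17 and 0.01 in the first 3 and with both differences negative in Edem2 (-0.02 and -0.12).

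**Figure D3:**
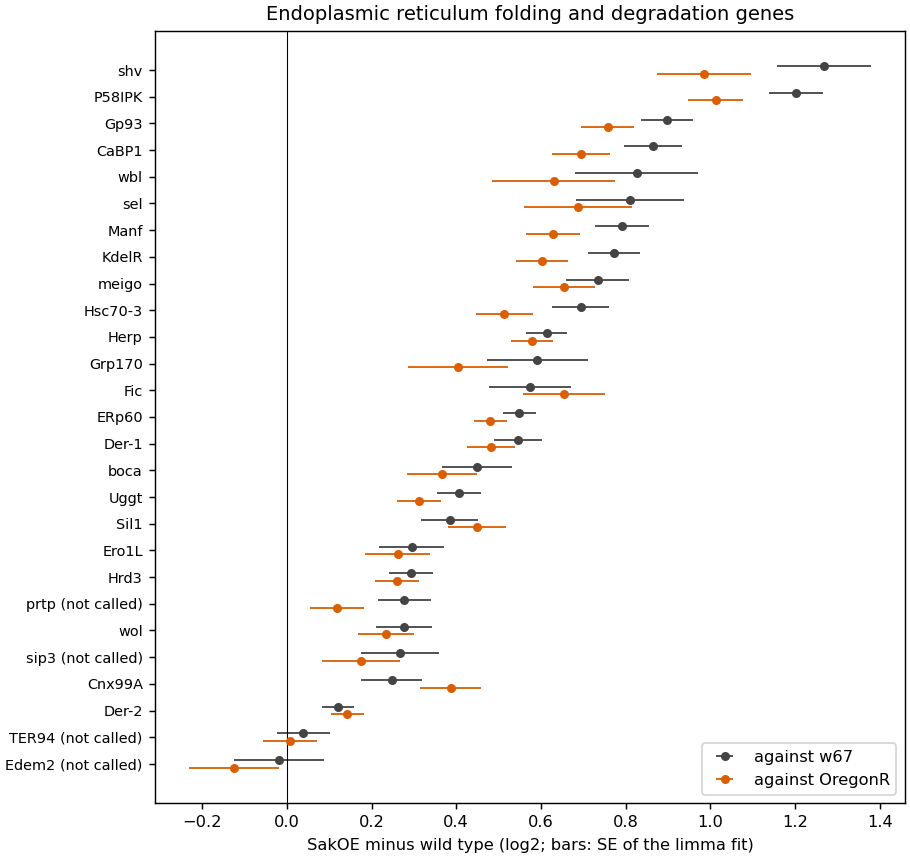
Differences of the 27 tested genes of endoplasmic reticulum folding and degradation between SakOE and w67 (grey) and between SakOE and OregonR (orange), on the log2 scale, with bars for the SE of the limma fit. The 23 genes that rose run from Der-2 to shv and P58IPK, and the 4 marked as not called lie in the lower part of the plot.

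The entry into the reticulum and the exit from it showed the same direction. Of 23 tested genes of N-glycosylation, the attachment and trimming of sugar trees on nascent proteins, 13 rose and 0 fell. Ostgamma, a subunit of the oligosaccharyltransferase, was at 11.61, 11.70 and 11.73 in SakOE and between 10.81 and 11.08 in the wild types (1.54-fold), and Pmm2, the phosphomannomutase that supplies the sugar donor, rose 1.47-fold. Of 19 genes of the translocation channel, the signal recognition particle and the signal peptidase, 10 rose and 0 fell. This count depended on single arrays. It was 3 without OregonR replicate 1 or without SakOE replicate 3, 4 without SakOE replicate 2, 5 without OregonR replicate 3 and 7 in the deposited values. Sec61gamma (1.25-fold), SrpRalpha (1.27-fold), a subunit of the signal recognition particle receptor, and the signal peptide peptidase gene Spp (1.39-fold) kept their calls under every alternative, while Sec61alpha (1.18-fold) lost its call when any of 7 single arrays was left out.

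Of 18 genes of the COPI and COPII coats and their cargo receptors, 8 rose and 0 fell. The gene zetaCOP, a COPI subunit, was at 8.32, 8.44 and 8.65 in SakOE and between 7.32 and 7.93 in the wild types (1.65-fold), and it did not differ from DSas-4, which was at 8.21, 8.28 and 8.18. Sec22, a SNARE of vesicles between the reticulum and the Golgi, rose 1.58-fold. The 5 secretory lists share some genes, which were counted once when the lists were taken as 1 set of 90 tested genes. In this set 55 rose and 0 fell, 49 of the 55 also against DSas-4 and DSas-6. The count lay between 38 and 55 when single arrays were left out, at 38 without SakOE replicate 3, and was 44 without centring. Among 10 tested heat shock protein genes, which include cytosolic members, Hsc70-3 was the single one that passed. All counts of this paragraph stand beside 5.21% higher and 4.06% lower over all tested genes.

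Values of other secretory tissues were read beside this group. Of 12 salivary gland markers on the array, 10 did not reach 4 on 3 arrays. The other 2 moved apart, with sage, a salivary gland transcription factor, at 6.14, 6.396 and 6.505 in SakOE against 5.61 to 5.81 in the wild types (1.49-fold), and fkh at -0.70 against w67 and 0.10 against OregonR. The mean level of both lay between 5.62 and 5.76 in SakOE, between 5.62 and 5.74 in w67 and between 5.30 and 5.39 in OregonR. Of 13 tested fat body genes, Lpin fell (at least 1.15-fold) and 0 rose, beside 4.06% and 5.21% of all tested genes. The mean level of the 13 was 7.28 to 7.41 in SakOE, 7.35 to 7.55 in w67 and 7.20 to 7.33 in OregonR. Of 31 gut markers on the array 2 were tested and 0 passed, also at an unadjusted p under 0.05 against both wild types (16.4% of all tested genes). The part of these tissues in the rise of the secretory genes was not tested further.

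Of 31 tested genes of DNA replication, 6 fell and 2 rose, beside 4.06% and 5.21% of all tested genes, and the median differences were -0.09 against w67 and -0.24 against OregonR. Prim2, the large primase subunit, was at 6.56, 6.55 and 6.46 in SakOE, at 7.31, 7.09 and 7.29 in w67 and at 7.65, 7.55 and 7.53 in OregonR (1.64-fold lower). PolE1, the catalytic subunit of DNA polymerase epsilon, was at 6.53, 6.501 and 6.52 against 6.79 to 7.03 (1.30-fold lower). RPA1, which binds single-stranded DNA, rose 1.26-fold and Psf3, a subunit of the GINS complex of the helicase, 1.28-fold. The number that fell was 2 without SakOE replicate 3 or w67 replicate 3, 3 without OregonR replicate 1 or w67 replicate 2, and 11 without centring. Prim1 (1.22-fold) and dpa, the Mcm4 subunit of the helicase (1.19-fold), were among the calls lost in such fits, and Gnf1 and Fen1 were the remaining pair, also lost in most of them.

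Few genes of mitosis and of the centrosome passed, in lists to be read beside 5.21% higher and 4.06% lower over all tested genes. Of 17 tested genes of the centriole and the pericentriolar material, ana3 alone fell (1.24-fold), which was lost without any of 5 single arrays and after quantile normalization, while 13 of the 17 had negative differences from both wild types and 2 had positive ones. Over all tested genes 35.9% were negative and 36.9% positive against both. Of 25 spindle and motor genes, mud fell. It links the spindle to the cell cortex in dividing neuroblasts and stood at 5.08, 5.01 and 5.09 in SakOE against 5.41 to 6.01 in the wild types (1.49-fold), a call lost without SakOE replicate 2 or w67 replicate 3. Of 27 kinetochore, checkpoint and APC/C genes, Kmn1 (1.33-fold) and the checkpoint kinase gene Mps1 (1.20-fold) fell, and Kmn1 was lost without SakOE replicate 2. Besides alphaTub85E, alphaTub84D changed among 6 tubulin genes, with a 1.37-fold fall at a level near 5.

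Single genes passed in the lists of the cell cycle and its checkpoints, to be read beside 5.21% higher and 4.06% lower over all tested genes. Rbf2, a retinoblastoma family repressor, fell 1.39-fold, the only change in 14 cell cycle regulators. The gene mus304, which encodes the ATRIP partner of the ATR checkpoint kinase, was at 6.21, 6.25 and 6.14 in SakOE against 6.83 to 7.05 in the wild types (1.61-fold lower), the only change in 18 DNA damage genes. Dronc, the initiator caspase, was at 9.83, 10.03 and 10.21 against 9.45 to 9.65 and rose 1.33-fold, the only change in 14 apoptosis genes, and its call was lost without OregonR replicate 1 (0.38) or SakOE replicate 3 (0.32). Of 12 genes of JNK, JAK/STAT and disc stress 0 passed in the limma test. At an unadjusted p under 0.05 against both wild types 0 were found, beside 16.4% of all tested genes.

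Several transcription factors of the neuroblast list fell. The RNA came from whole brains and discs, so the values do not place these falls in neuroblasts. Of 22 tested neuroblast genes 5 fell and 0 rose, beside 4.06% and 5.21% of all tested genes, all 5 also against DSas-4 and DSas-6, with median differences of -0.17 against w67 and -0.12 against OregonR. The mean level of the 22 was 8.80 to 8.93 in SakOE, 9.08 to 9.12 in w67 and 9.08 to 9.12 in OregonR. The 5 that fell were called on these same arrays, so nothing is read from that gap. The nuclear receptor gene svp, which ends an early temporal stage of neuroblasts, was at 7.56, 7.43 and 7.48 in SakOE, at 8.95, 8.88 and 8.80 in w67 and at 9.001, 8.90 and 8.64 in OregonR (2.56-fold lower). The homeodomain gene pros, which is passed to the differentiating daughter and drives it out of the stem cell state, was at 11.54, 11.48 and 11.43 against 12.12 to 12.45 (1.67-fold lower).

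The other members of this group were weaker or dim. The zinc finger genes cas and Kr also belong to the temporal series. The fall of cas was 1.64-fold and was lost without SakOE replicate 3 (-0.65), and Kr was at 3.55 to 3.58 in SakOE and 4.12 to 4.31 in the wild types (at least 1.08-fold). The call of wor, a Snail family factor, was lost when any of 7 single arrays was left out. The count was 3 without SakOE replicate 3 and 7 without SakOE replicate 1. The general neuroblast genes dpn, with -0.11 and -0.02, and mira, with -0.19 and -0.12, did not pass.

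Neurons and glia changed in single genes, to be read beside 5.21% higher and 4.06% lower over all tested genes. Of 18 neuron genes Syn, the synaptic vesicle protein synapsin, rose 1.37-fold, and DSas-4 had a like level at 9.84, 10.27 and 10.24 against 10.17, 10.05 and 10.14 in SakOE. Of 16 glia genes wrapper, a surface protein of midline glia, rose 1.20-fold. Of 23 neuropeptide genes, a list written after the changed genes had been seen, Pdf, the neuropeptide of the clock neurons, fell 1.48-fold and AstC fell 1.48-fold, with AstC lost when any of 6 single arrays was left out. Of 19 axon guidance genes, the receptor phosphatase gene Ptp69D rose, a call lost when any of 4 single arrays was left out, and Dscam4, an immunoglobulin-domain surface protein, fell.

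Of 10 tested genes of the ring gland, the source of the moulting hormone ecdysone, 2 fell and 0 rose. Akh and jhamt are among the 10 and are not genes of ecdysone synthesis. Over all tested genes 4.06% fell and 5.21% rose. Of the 10, 9 had negative differences from both wild types (35.9% of all tested genes), and the medians of the list were -0.40 and -0.33. The mutants were lower too, with medians against w67 and OregonR of -0.33 and -0.22 in DSas-4 and of -0.18 and -0.115 in DSas-6. In 0 of the 10 did SakOE differ from all 4 groups. The gene nvd, which acts first in ecdysone synthesis, was at 7.82, 7.505 and 7.17 in SakOE, at 8.77, 8.85 and 8.80 in w67 and at 8.42, 8.67 and 8.89 in OregonR (2.24-fold lower). It did not differ from DSas-4, at 7.14, 7.96 and 8.13. The P450 gene dib fell 1.83-fold, which was lost when any of 4 single arrays was left out. Of 17 genes of the response to ecdysone, ftz-f1 alone fell (1.64-fold), also lost in 4 such fits, while 13 had positive differences from both wild types (36.9% of all tested genes).

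Of 20 cytochrome P450 genes tested, 2 rose and 2 fell, beside 5.21% and 4.06% of all tested genes. Cyp4e2 was at 8.83, 9.10 and 9.42 in SakOE against 7.87 to 8.36 in the wild types (1.94-fold higher), and both mutants were as high, with DSas-6 between 8.82 and 9.08. Cyp12e1 was at 8.06, 8.15 and 8.07 against 6.76 to 7.32 (1.83-fold higher), and the mutants lay at 7.26 or below. The falls were Cyp4g1 and the dim Cyp301a1.

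Of 26 Mediator subunits 5 fell and 0 rose, beside 4.06% and 5.21% of all tested genes, and 3 fell without SakOE replicate 2. This list was written after the changed genes had been seen, so the count is no independent support. MED7 was at 9.62, 9.68 and 9.59 in SakOE against 10.53 to 10.71 in the wild types (1.98-fold), and DSas-4 had the same level at 9.60, 9.61 and 9.54. MED11 fell 1.47-fold with DSas-4 at 9.43 to 9.502, and MED10 fell 1.62-fold with both mutants at 10.54 or above. Of 11 condensin and cohesin genes, a list of the same kind, Cap-H2 and Cap-G fell and pds5 rose (1.32-fold). Over all tested genes 4.06% fell and 5.21% rose. The call of Cap-G was lost in 6 fits without 1 array. Of 21 chromatin modifiers 3 fell and 0 rose, beside 4.06% and 5.21% of all tested genes. Those that fell were osa (1.36-fold), a subunit of the Brahma remodelling complex, Iswi and Sirt1. The last pair lost their calls when single arrays were left out.

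**Figure D4:**
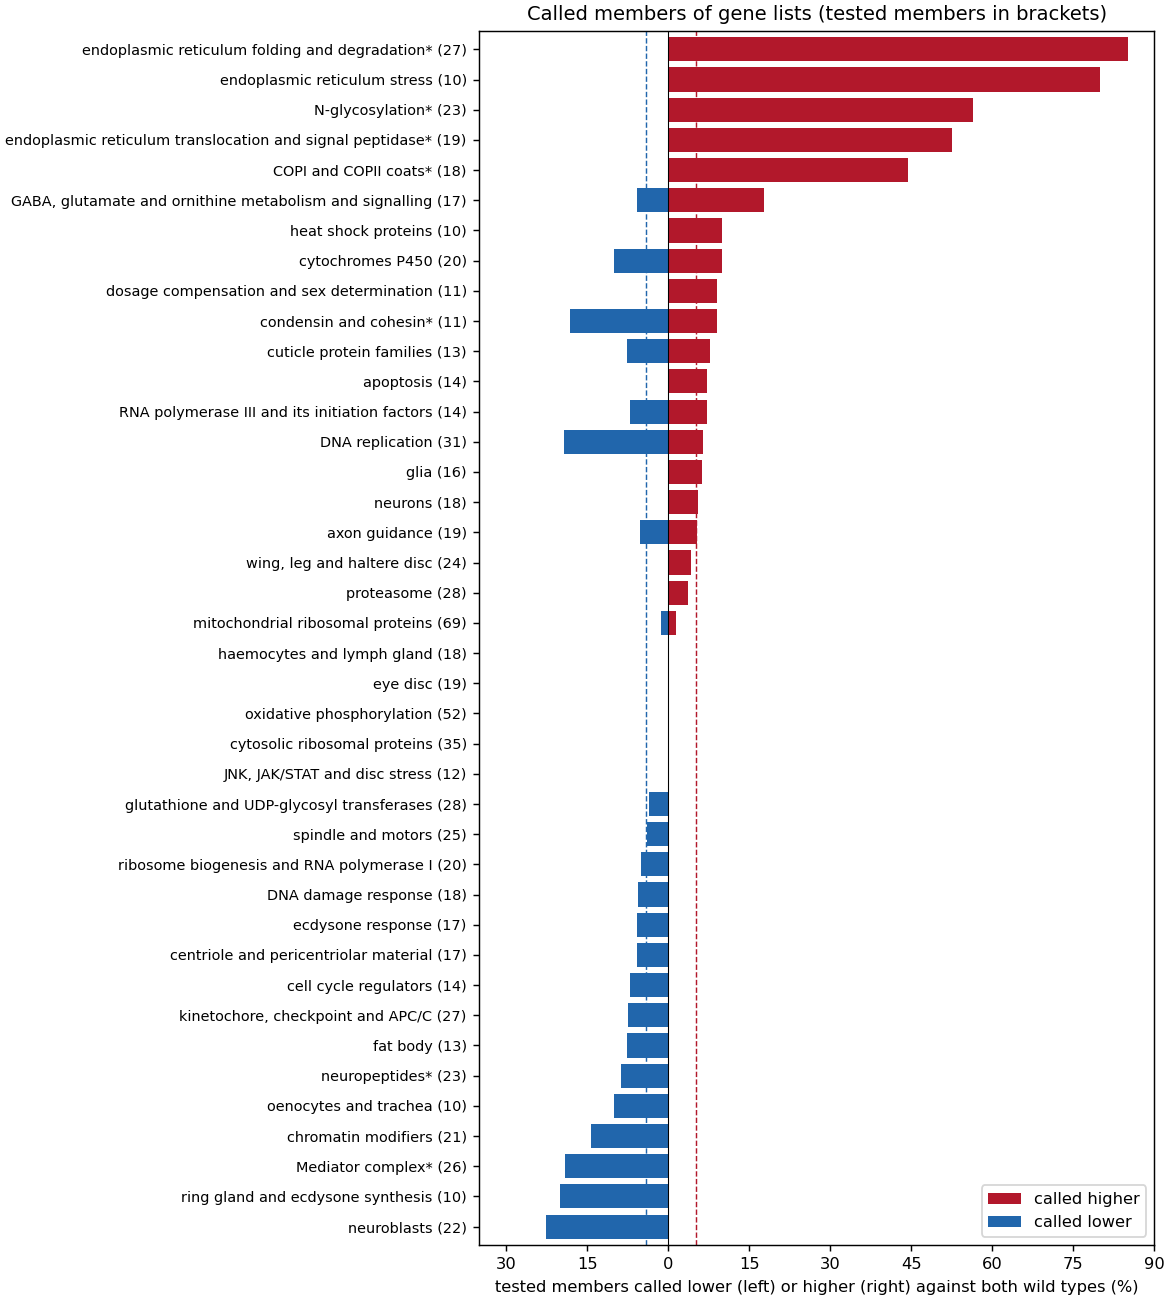
Share of the tested members of each gene list that rose (red, to the right) or fell (blue, to the left) against both wild types, in percent, for lists with at least 10 tested members, whose number stands in brackets. Dashed lines mark the shares over all tested genes, 5.21% and 4.06%, and an asterisk marks lists written after the changed genes had been seen; the 5 secretory lists stand at the top, with 44.4% to 85.2% of members higher.

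Basic metabolism and disc patterning gave few or 0 calls in the limma test. At an unadjusted p under 0.05 against both wild types, 16.4% of all tested genes were found, which is the share to read the counts in brackets against. No member passed among 35 cytosolic ribosomal proteins (0 at that unadjusted p), 52 genes of oxidative phosphorylation (2), 9 of glycolysis (1), 19 eye disc genes (0), 18 haemocyte and lymph gland genes (0), 6 muscle genes (2), 4 cilium genes (0), 3 Hox genes (1), 2 gonad genes (0) and 2 genes of humoral immunity (0). Among 24 genes of the wing, leg and haltere discs caup rose (1.34-fold), which was lost without SakOE replicate 3 (0.38). Of 69 mitochondrial ribosomal protein genes mRpS31 rose 1.45-fold and mRpS18A fell 1.36-fold. Calls in these lists stand beside 5.21% higher and 4.06% lower over all tested genes.

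The remaining lists had 1 or 2 calls each, to be read beside 5.21% higher and 4.06% lower over all tested genes. Of 28 proteasome genes Prosalpha4 rose, and of 20 genes of ribosome biogenesis and RNA polymerase I the polymerase subunit gene Polr1H fell 1.35-fold. Of 28 glutathione and UDP-glycosyl transferases Ugt302C1 fell 1.29-fold. Of 11 genes of dosage compensation and sex determination Sxl rose. Its call was lost without centring (0.23), after quantile normalization (0.30) and when any of 5 single arrays was left out. It was also lost with the mean of all probe sets (0.20). Other Sxl probe sets stood at 0.09 and 0.09 and at 0.16 and 0.40 against w67 and OregonR. Neither passed against both. Of 13 cuticle protein genes Cpr11B rose 1.62-fold and Cpr49Ah fell, both with calls lost when single arrays were left out, while 10 had positive differences from both wild types (36.9% of all tested genes). Of 10 oenocyte and trachea genes Cyp4g1 alone passed against both wild types. FASN3, a fatty acid synthase of oenocytes, was at 4.24, 3.52 and 5.58 in SakOE, at 5.73, 7.62 and 7.02 in w67 and at 5.52, 5.40 and 6.26 in OregonR. The comparison of FASN3 with w67 gave -2.34 (limma adjusted p = 0.0185), and the one with OregonR, -1.28, did not pass (limma adjusted p = 0.175).

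The changed genes were unevenly spread over the chromosomes. On the third chromosome 228 of 3097 tested genes rose and 179 fell (13.1%), and on the others 134 of 3852 rose and 103 fell (6.15%). By arm the share was 13.6% on 3L and 12.8% on 3R, against 6.74% on X, 5.78% on 2L, 5.95% on 2R and 7.14% on the small chromosome 4. Of the 57 genes that changed by at least 1 log2 unit, 52 lay on the third chromosome, where the median size was 0.41 against 0.32 elsewhere. Leaving out single arrays gave shares between 9.56% and 11.7% on the third chromosome and between 3.63% and 5.27% elsewhere. DSas-4 differed from both wild types at 3.43% of all tested genes, with 6.20% on 3L, 6.14% on 3R and 1.29% or less on X, 2L and 2R. DSas-6 differed at 6.24%, with 5.91% on 3L, 7.53% on 3R and 4.72% to 6.22% on those 3 arms.

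Within the third chromosome the changes were concentrated in stretches. When the tested genes of an arm were taken in map order and divided into 10 equal parts, 25.5% of the genes in part 8 of 3L changed and 22.6% in part 9, as did 20.4% in part 5 and 16.1% in part 7. On 3R parts 2 to 5 had 23.1%, 21.4%, 17.9% and 17.9%. The highest part on 2L had 12.2% and on X 14.5%. Which chromosomes of the SakOE flies came from another strain is not given in the labels. Strain background and Sak overexpression therefore cannot be told apart, at these genes or at any other changed gene on any chromosome.

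**Figure D5:**
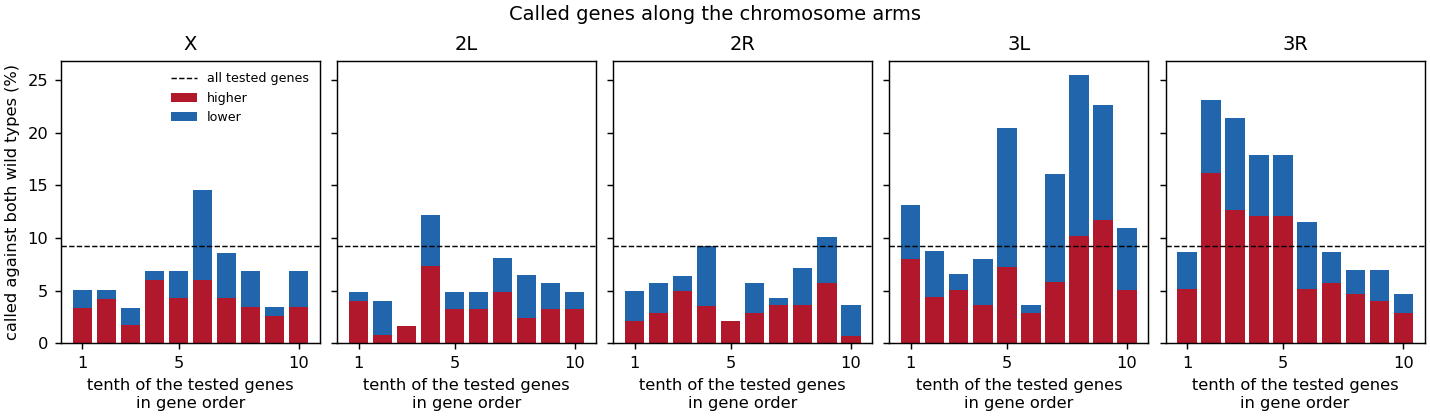
Share of tested genes that changed against both wild types (percent, rises in red and falls in blue stacked above them) in 10 successive parts of each chromosome arm, in map order; the dashed line is the share over all tested genes, 9.26%. The tall bars are on 3L, up to 25.5%, and in the first parts of 3R, up to 23.1%.

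Some changed genes were neighbours. Runs of 3 or more changed genes with no unchanged tested gene between them were found on 2L, 2R, 3L and 3R. Of these, 1 lay on 2L, 1 on 2R and the rest on the third chromosome. Many mixed rises with falls, as in Jhbp1 and CG14662, which rose, and corto, which fell. How many runs the shares above would give was not computed. On 3R, TkR86C, MED7, Cap-H2 and TfIIFbeta, a subunit of the general factor TFIIF, all fell, TfIIFbeta by 2.04-fold with DSas-4 at the same level (10.29, 10.18 and 10.28 against 10.33, 10.24 and 10.22 in SakOE). On 3L, CG17026, CG17029 and hzg fell beside mRpS31, which rose, and mus304, CG32195, CG7341 and geko all fell. PDCD-5, MED10 and Hsc20 fell beside CG13053 on the same arm. The run of Vps16A, CG8861 and Aduk on 3R rose as a whole, by 1.28-fold, 1.68-fold and 1.27-fold.

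The secretory genes that rose lay on all 5 large arms. The limit on strain background given above holds for them as well. Of the 5 secretory lists taken as 1 set, 8 of 16 tested genes rose on X, 13 of 18 on 2L, 8 of 12 on 2R, 8 of 15 on 3L and 17 of 28 on 3R. They made up 6.14% of the changed genes on the third chromosome and 12.2% of those elsewhere. SAK itself lies on 3L, and the large changes in CG32055, CG13032, alphaTub85E, CG7900 and Brf are all on the third chromosome, while Cyp4g1 is on X and Cpr49Ah on 2R.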

How the data were processed

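Total RNA of 15 samples was labelled with biotin and hybridised to single-colour Affymetrix Drosophila Genome 2.0 arrays, per the labels. The authors deposited log2 values for 18952 probe sets, and the submitters' processing notes name GCRMA and limma without versions. That the scale is log2 follows from the values, which run from about 2.2 to under 15. The lowest value of an array, held by many of its probe sets, differs between groups (w67 and DSas-4 share one, and DSas-6, SakOE and OregonR each have another), so for these the group and a possible normalization run of its own cannot be told apart. The number of arrays limits the precision.

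Probe sets were named through the platform annotation, checked by Entrez number against the RefSeq table of assembly Release 6 plus ISO1 MT. A single symbol was given to 13647 probe sets, several to 402 and none to 4903, and 13544 of the first were found in the table. Genes were tested where a probe set reached 4 on at least 3 of the 15 arrays (6973 genes), and the brightest probe set on average stands for each gene. Each array was centred on the median of the tested genes, and their grand median, 8.77, was added back. The 15 arrays entered a single limma fit with the group as its only term (limma 3.58.1, R 4.3.3, eBayes), with 2-sided tests, Benjamini-Hochberg adjustment within each comparison and a threshold of 0.05. Nothing in the labels says whether replicates were dissected separately beyond the term biological replicate. The p-values set a difference between groups against the spread among these samples within their groups.

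Genes were named by rule: SAK, Sas-4 and Sas-6, the 20 largest changes in each direction, the 10 largest that also differed from both mutants, the largest changed members of each list, and the changed genes of highest level. The members, the 42 lists and the tests were chosen with earlier results of these data known, and 7 more lists, named in the text, after the changed genes had been seen. Genes outside the rule, such as neighbours and list members that completed a count, were chosen after their values were seen. Alternatives changed the centring, the filter, the probe set rule, the arrays in the fit, the variance model and a replicate block, and left out each of the 9 arrays. The fit was tested on simulated data.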

Additional observations from a re-analysis of the deposited data

Results flagged for a closer look

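These signals lie outside the genes tested above. One of the array's control probe sets, whose target is not annotated in the tables used here, had a mean log2 value of 8.62 in SakOE (8.62, 8.73 and 8.52) and the lowest value of the array on the other 12 arrays. It was the only 1 of 183 control probe sets with this pattern. Of 5122 probe sets with several gene symbols or none, 3 reached 4 on all SakOE arrays and on no other array, and 5 were under 4 on all SakOE arrays and reached 4 on all others. These probe sets enter no gene comparison, and no cause of their values was tested. Groups of 3 arrays are too small for the test of outlying samples.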

How the results depend on the processing

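Of the 132 named genes that changed, 96 kept their call under every alternative that tested them, and none changed direction. Of all 646 genes, 329 did so. The number called against w67 was 1194 and moved with the scaling, to 2280 (319 higher, 1961 lower) in the deposited values and 1825 (340 and 1485) when arrays were centred on the median of all probe sets. The number against both wild types was 646, lay between 599 and 746 in the alternatives that kept all arrays of these groups and the filter on low values, and was 1012 (631 higher, 381 lower) without that filter. Without that filter, 6317 genes were called against w67 (5326 higher), 515 against all 4 groups and 5651 for w67 against OregonR. The lowest value, held by many probe sets, was 2.181 on the SakOE arrays, 2.174 on the w67 arrays and 2.180 on the OregonR arrays. Its part in these counts was not tested. The wild types differed at 497 genes, and at 1095 in the deposited values and 992 with the median of all probe sets. The split against both was 56.2% higher, with 241 higher and 505 lower in the deposited values, 256 and 375 with the median of all probe sets and 336 and 267 after quantile normalization. Leaving out 1 array gave 450 to 564 genes against both, 794 to 1147 against w67 (794 without SakOE replicate 2), 882 to 1238 against OregonR, 230 to 299 against all 4 and 294 to 526 between the wild types (295 and 294 without OregonR replicates 2 and 3, 325 without w67 replicate 2). SAK passed as lower than w67 in the deposited values (-0.30, limma adjusted p = 0.0274) and with the median of all probe sets (-0.29, 0.0468), and lay between -0.26 and -0.14 without single arrays. Of the 9 same-numbered pairs among SakOE, w67 and OregonR, 2 had deviations correlated above 0.1, and in no pair of these groups did all 3, so their replicates were taken to share a number only. Between DSas-4 and w67 all 3 pairs were above it (0.30, 0.18 and 0.12), and with the block DSas-4 differed from both wild types at 216 genes, against 239 without it. The same fit with the replicate number as a block called 599 genes against both, 1128 against w67 and 1192 against OregonR. The comparison with all 4 groups was not run on the 9 arrays alone. Probe sets below 4 give only bounds, and values near the lowest value have no order.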

Other observations

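Among the 13647 probe sets with a single gene symbol, 11 reached 4 on all SakOE arrays and on none of the other 12, and 11 were under 4 on all SakOE arrays and reached 4 on all others. The first 11 passed the filter on low values through the SakOE arrays alone. Values close to 4 can meet either rule, and the same counts were not made for the other groups.

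Among the changed genes of highest level besides Hsc70-3 and ERp60, D1, a chromatin protein that binds AT-rich satellite DNA, was at 13.64, 13.63 and 13.65 in SakOE and between 13.43 and 13.54 in the wild types. Its rise of 1.11-fold was lost without centring (0.02) and after quantile normalization (0.01). Hrb87F, an RNA-binding protein of the hnRNP family, fell 1.25-fold and lost its call when any of 8 single arrays was left out, and it was far lower in DSas-4, at 11.46, 11.85 and 11.96. In pyd, a junction protein, the brightest probe set fell by 0.55 and 0.56 on the log2 scale, while another probe set of the gene stood at 0.27 and 0.36 without passing. The growth factor gene miple1 was at 11.31, 10.94 and 11.21 in SakOE against 9.25 to 9.87 in the wild types (2.48-fold higher) and at 11.68, 11.62 and 11.38 in DSas-4.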
